A study of Arabidopsis thaliana with 18 samples.

Results

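Mature rosette leaves of Arabidopsis thaliana were compared in a pair of states: cut discs that had been kept overnight in a mannitol solution, and leaves taken directly from the plant. The comparison takes in the 3 libraries of mannitol discs and the 3 libraries of wild-type leaves, 6 of the 18 libraries of the series, and every gene with enough counts in them, 18334 of the 32833 loci in the deposited count table. All plants were of the Col-0 ecotype and grew in soil under short days of 10 h light, at 21 °C. Discs were cut from plants 4 weeks old and kept in half-strength MS medium, a mineral salt medium, with 1% mannitol, which the labels call the osmotic control. The leaves were from untreated wild-type plants of the same age. The series also holds discs in 1% glucose and 1% fructose, and leaves of the overexpressor lines Oex1 and Oex2 of ERDL4 (AT1G19450), a sugar carrier of the vacuole membrane, with 3 libraries each. These 12 libraries are used below as a second comparison of discs with leaves. The discs and the leaves come from separate experiments. Cutting, incubation in medium, the mannitol itself and the batch of plants, extraction and sequencing differed together, so their parts cannot be told apart. The labels do not give the light during the incubation or the hour at which either tissue was taken.

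A leaf on the plant lives by day on photosynthesis and by night on the starch it stored, and it sends sucrose out through the phloem. When carbohydrate runs short, the SnRK1 kinase and a set of bZIP transcription factors raise the dark-inducible genes, and amino acids, lipids and chloroplast proteins are broken down as respiratory fuel. Mannitol is a sugar alcohol that Arabidopsis uses very little as a carbon source. Cutting is known to set off jasmonate synthesis, touch-responsive genes and cell wall repair at the wound.

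The 6 libraries held 19429580 to 23806098 counts. The first principal component carried 89.5% of the variance of the 6 libraries and placed the discs at 96.7 to 113 and the leaves at -113 to -87.6. Wild-type replicate 2 lay at -42.6 on the second component (4.25% of the variance) and the other 5 libraries between -14.1 and 25.7. Mannitol replicates 1 and 2 differed by a chi-square of 4.59 per degree of freedom and the other pairs within a group by 13.8 to 55, all above the sampling noise of 1 library read again. Over all 18 libraries the first component (60.1%) set discs above leaves, and the second (19.5%) held the mannitol discs at -140 to -139, the wild-type leaves at -4.36 to -3.53 and the hexose discs at 26.2 to 44.8. The Oex leaves lay at 17 to 45.9 on the second, beside the hexose discs. Summed levels were 59.8 to 66.3 CPM in the discs and 70.4 to 81.6 CPM in the leaves for 10 guard cell markers, and 454 to 686 and 784 to 827 CPM for 7 phloem markers. In the same order they were 1707 to 2816 and 1729 to 2199 CPM for 10 epidermis markers, 9 of them tested, and 39.8 to 48.2 and 62 to 89 CPM for 7 xylem markers. Of the tested markers 3, 2, 3 and 6 were lower and 2 phloem markers were higher. The shares lower were 30%, 28.6%, 33.3% and 85.7%, against 33.9% of all genes tested. Shares higher were 0%, 28.6%, 0% and 0%, against 32.6%. Without wild-type replicate 3, 3 xylem markers were lower, and without mannitol replicate 3, 2 epidermis markers were higher. The 6 root markers summed to 0 CPM in the discs and to at most 0.218 CPM in the leaves, and none of the 6 root and 6 seed storage markers had enough counts to be tested, while 1 of 5 flower markers was tested and not called. In bulk tissue, fewer cells of a type and less RNA per cell cannot be told apart, and the part of tissue make-up in the results below was not tested.

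Of 18334 genes tested, 12179 (66.4%) differed between mannitol discs and wild-type leaves, 5972 (32.6%) higher in discs and 6207 (33.9%) lower, at an adjusted p under 0.05 in edgeR's quasi-likelihood test. At least a 2-fold change was seen in 2894 genes that were higher (15.8%) and 3564 that were lower (19.4%), and the median log2 fold change over all genes tested was -0.02. With library size as the only scaling, 6237 were higher and 5564 lower, and the median was 0.07. Without wild-type replicate 2, the library that stood apart, 6451 were higher and 6420 lower of 18732 tested. Genes said here to rise or fall without a p of their own had an adjusted p under 0.05 in this test. Counts of list members called below are to be read beside 32.6% higher and 33.9% lower of all genes tested. Fold changes are log2 values of discs minus leaves, given with a standard error that was derived from the test's F value and is approximate. Levels are CPM, counts scaled to a common library size with TMM factors over all 18 libraries. In 36.2% of all genes tested every disc library was above every leaf library, and in 36.3% every one was below. Many genes below were named for a small p or for no overlap, so their separation follows in part from the choice.

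The steepest rises among genes with a symbol included glyoxalase family genes and an enzyme of inositol breakdown. GLYI4, a glyoxalase family gene, was at 56.9, 48.6 and 101 CPM in the discs and had no count in any wild-type library, so its level was at least 1365-fold higher against a floor of 3 counts over the group. Its relative GLYI7 was at 195, 170.1 and 274 CPM against 0.158, 0.435 and 0 CPM (log2 fold change 10.06 ± 0.48, adjusted p = 2e-06). MIOX2, a myo-inositol oxygenase, stood at 127, 132 and 192 CPM against 0.105, 0.218 and 0.252 CPM (9.56 ± 0.30, adjusted p = 3.21e-07). The rule that named these genes asks for no overlap between disc and leaf libraries. The receptor-like protein gene RLP22 and FLS5, a flavonol synthase family gene, were at 0 in all wild-type libraries and at least 594-fold and 235-fold higher in discs. PRR2, a pinoresinol reductase of lignan synthesis, had 1 count in the leaves and 1871 in the discs, a ratio of 1832 with a 95% counting interval of 328 to 72407. Bounds and intervals of this kind cover counting error only. The lipase gene MPL1 (10.18 ± 0.37), the thioredoxin gene TH8 (8.82 ± 0.56), the defensin-like gene PDF1.4 (8.72 ± 0.75) and the cystatin gene CYS2 (8.69 ± 0.38) also rose, with adjusted p-values of 5.52e-07, 9.84e-06, 5.39e-05 and 1.38e-06.

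At the other end were cell wall, defence and nutrient genes. EXPA5, an expansin that loosens growing walls, was at 0.0562, 0.111 and 0.0883 CPM in the discs and 74.5, 37.1 and 90.7 CPM in the leaves (-9.53 ± 0.56, adjusted p = 5.56e-06). XTH31, a xyloglucan-modifying enzyme, was at 0.0562, 0.556 and 0.0442 CPM against 119, 78 and 119.7 CPM (-8.96 ± 0.48, adjusted p = 3.73e-06). The lipase gene LTL1 had no count in the discs and was at least 218-fold lower there. FBA5, an aldolase family gene, fell by 7.56 (adjusted p = 1.24e-05), the glucosidase gene BGLU1 by 7.37, the glucanase gene BG3 by 7.31, PCC1, a pathogen and clock controlled gene, by 7.29, IQD19 by 6.61 and the nicotianamine synthase gene NAS4 by 6.65, with adjusted p-values of 0.000111 or less. PDF1.2b, a defensin with near-identical copies whose reads the counting could have split, was the least even, at 8.48, 94.9 and 21.2 CPM in the leaves and 0.281, 0.167 and 0.0442 CPM in the discs (-8.01 ± 1.40, adjusted p = 0.00219).

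Measured as CPM gained, a share of each library's counts that also rises with transcript length, CAT3 (AT1G20620), a catalase, gained most, from 3874, 4125 and 4177 CPM in the leaves to 13543, 12601 and 14436 CPM in the discs. The next gains were in ESM1, an epithiospecifier modifier (2701, 2052 and 3463 against 8850.3, 8456 and 8737 CPM), the tonoplast water channel TIP2 (753, 468 and 856 against 6068, 5775 and 5729 CPM) and BXL1, a beta-xylosidase of the cell wall (43.3, 42.7 and 51 against 4471, 4260.4 and 4519 CPM). All 4 were separated between the groups, with log2 fold changes of 1.73 ± 0.17, 1.66 ± 0.22, 3.07 ± 0.25 and 6.59 ± 0.19. NIT1, a nitrilase, and DIN10, a raffinose synthase family gene, followed (1.80 ± 0.16 and 6.49 ± 0.36). The losses in CPM were led by photosynthesis genes: RBCS1A, the Rubisco small subunit, went from 22571, 13862 and 22931 CPM in the leaves to 4582, 4905 and 2578 CPM in the discs. CAB3, LHCA1, LHCB3 and LHCB5, which encode light-harvesting proteins, and RCA, the Rubisco activase, fell by 1.79, 1.48, 1.01, 1.15 and 1.20 on the log2 scale.

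**Figure D1:**
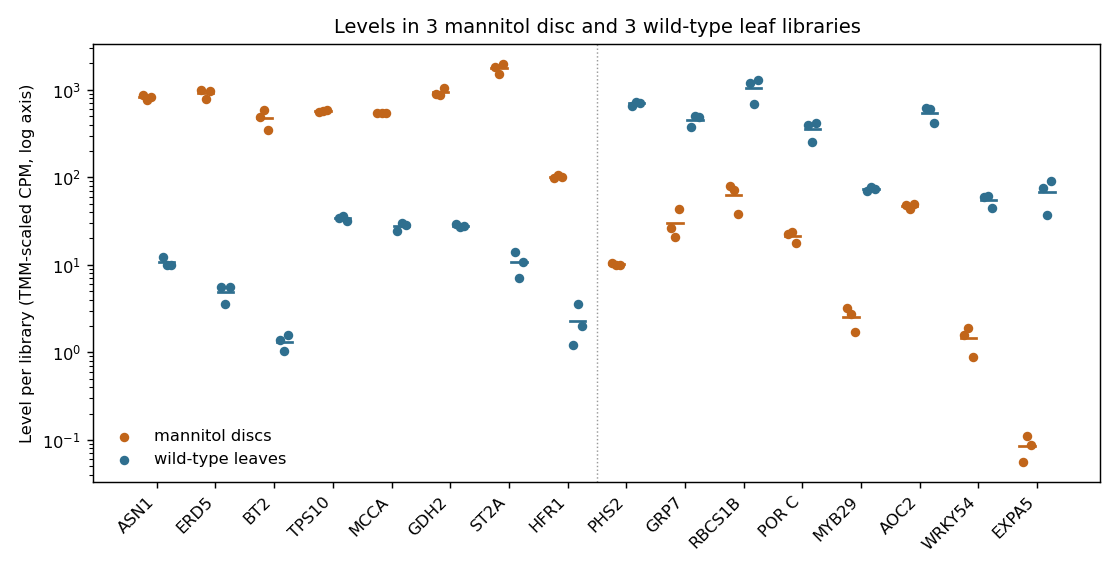
Levels in TMM-scaled CPM (log axis) of 8 genes that were higher and 8 that were lower in mannitol discs, with 1 point per library and a bar at the mean of 3 libraries. In none of the 16 genes does a disc library (orange) overlap a leaf library (blue), which the rules that named them favour. ASN1 lies at 769.8 to 864 CPM in discs and at 9.98 to 12.2 CPM in leaves.

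Genes that mark sugar shortage stood much higher in the discs. Of 17 members of the sugar starvation list, all tested, 16 were higher and 0 lower, with a median log2 fold change of 3.96, where 32.6% and 33.9% of all genes tested were called. ASN1 (AT3G47340, chr3:17437840-17441431, minus strand, 10 exons), the dark-inducible asparagine synthetase that stores nitrogen when carbon is short, was at 864, 769.8 and 828 CPM in the discs and 12.2, 10.1 and 9.98 CPM in the leaves (6.25 ± 0.16, adjusted p = 3.2e-07). The class II trehalose phosphate synthase genes TPS10, TPS9 and TPS11, which sugar is known to repress, were far apart between the groups. All were also higher in hexose discs than in Oex leaves, by less, as given below. TPS10 was at 559, 576 and 587 CPM against 34.5, 35.7 and 31.5 CPM (4.08 ± 0.12, adjusted p = 3.2e-07). TPS9 was at 166, 169 and 139.8 CPM against 9.96, 7.34 and 10.4 CPM (4.09 ± 0.17), and TPS11 (AT2G18700, chr2:8108898-8112010, plus strand, 3 exons) at 580.2, 594 and 601 CPM against 68.7, 54.9 and 68.7 CPM (3.20 ± 0.14). In each of these 4 genes the lowest disc library was above the highest leaf library. The 1 member not called was AT3G59940, and the members' fold changes ran from 0.484 to 8.66.

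The I-box, with the letters GATAAG on either strand, is a promoter motif first described in light-regulated plant genes. It lay in the 250 bases before the start of 7 of the 17 starvation genes. Of the motifs counted it is shown as the most frequent in this list, and the W-box (TTGACC or TTGACT) came next with 4 genes. The I-box was in 15.8% of the 2872 genes at least 2-fold higher that had a promoter sequence, in 11.5% of 3562 genes at least 2-fold lower and in 12.4% of all 18249 tested genes with one. The 200 bases before the starts of ASN1 (chr3:17441432-17441631, minus strand) and TPS11 (chr2:8108698-8108897, plus strand) are given to show where it sits, from the RefSeq TAIR10.1 genome, with the I-box in capitals (CTTATC where it is on the other strand):

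ASN1: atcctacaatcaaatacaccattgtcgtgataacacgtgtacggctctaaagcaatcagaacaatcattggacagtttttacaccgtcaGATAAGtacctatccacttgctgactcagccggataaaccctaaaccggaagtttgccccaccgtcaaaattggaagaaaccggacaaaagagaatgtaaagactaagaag

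TPS11: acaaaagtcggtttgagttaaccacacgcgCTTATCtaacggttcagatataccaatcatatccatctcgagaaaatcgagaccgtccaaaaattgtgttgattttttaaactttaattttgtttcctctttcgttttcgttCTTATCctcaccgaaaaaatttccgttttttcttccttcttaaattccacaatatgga

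TPS11 holds 2 copies in this stretch and ASN1 1, with a second one farther from its start. The ASN1 stretch also holds the letters CACGTG of another motif, the G-box, left in small letters. A match of letters is a description of the sequence and not a shown binding site.

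Enzymes that break down branched-chain amino acids and lysine, which feed electrons to the mitochondrion in starved plant cells, rose together. Of 17 members tested, 16 were higher and none lower, with a median of 2.70. MCCA, a subunit of methylcrotonyl-CoA carboxylase in leucine breakdown, was at 546, 545 and 544 CPM in the discs and 24.4, 30 and 28.9 CPM in the leaves (4.29 ± 0.14, adjusted p = 3.21e-07). Its partner subunit MCCB was at 472, 477 and 497 CPM against 49.5, 49.7 and 50.7 CPM (3.26 ± 0.11, adjusted p = 3.81e-07). The branched-chain keto acid dehydrogenase genes DIN4 and BCE2 rose by 4.35 ± 0.16 and 3.02 ± 0.11. Replicates of both groups lay close together in these genes and the groups did not overlap, which the choice of members by smallest p favours.

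Among 12 other genes of amino acid breakdown, 10 were higher and 2 lower (median 2.49). ERD5 (AT3G30775, chr3:12448636-12451556, minus strand, 5 exons), the proline dehydrogenase of mitochondria, was at 991, 779.8 and 960 CPM in the discs and 5.59, 3.59 and 5.6 CPM in the leaves (7.52 ± 0.24, adjusted p = 3.29e-07). GDH2, a glutamate dehydrogenase, was at 906, 871 and 1037 CPM against 29.2, 27 and 27.9 CPM (5.06 ± 0.15, adjusted p = 3.2e-07). PDS1, the 4-hydroxyphenylpyruvate dioxygenase of tyrosine breakdown, and DELTA-OAT, the ornithine aminotransferase, rose by 2.91 ± 0.12 and 3.35 ± 0.17. The members that fell were GDH3, a glutamate dehydrogenase isoform with 1 count in the discs and 133 in the leaves, and the arginase gene ARGAH2 (-0.92 ± 0.24, adjusted p = 0.00982). The ACT motif, ACTCAT on either strand, was described in the ERD5 promoter, where it mediates the response to low osmolarity and proline. It is in 11.9% of all promoters tested and in 11.4% of those at least 2-fold higher, and its place near the start of ERD5 is shown. The 200 bases before the ERD5 start (chr3:12451557-12451756, minus strand, TAIR10.1) hold it in reverse, in capitals:

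ERD5: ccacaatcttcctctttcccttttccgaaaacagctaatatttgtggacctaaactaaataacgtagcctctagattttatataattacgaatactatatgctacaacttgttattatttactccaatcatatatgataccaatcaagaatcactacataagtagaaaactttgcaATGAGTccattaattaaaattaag

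Genes of autophagy, which delivers cell parts to the vacuole for recycling, were higher in 28 of 29 members with none lower, although the median change was small at 0.90. ATG8E, a ubiquitin-like protein of the autophagosome membrane, was at 145, 137 and 144 CPM in the discs and 23.9, 22.2 and 19.4 CPM in the leaves (2.69 ± 0.11, adjusted p = 7.01e-07). ATG8H, APG5 and ATG13, the last a part of the ATG1 kinase complex, rose by 1.96 ± 0.12, 1.72 ± 0.10 and 1.59 ± 0.09. Peroxisomal fatty acid breakdown had 15 members higher and 2 lower of 18 tested (median 1.19). The acyl-CoA oxidase genes ACX2, ACX4 and ACX1 were higher by 2.81 ± 0.14, 2.53 ± 0.12 and 1.84 ± 0.11. KAT5, a thiolase, went from 162, 123 and 141 CPM in the leaves to 11.1, 9.23 and 8.57 CPM in the discs (-3.89 ± 0.16, adjusted p = 6.34e-07), and the malate dehydrogenase gene PMDH2 fell by 1.56. Chlorophyll breakdown and senescence genes were higher in 14 of 18 and lower in 3 (median 1.95). NAC6, known as ORE1, a transcription factor that drives leaf senescence, was at 74, 85.2 and 95.1 CPM in the discs and 4.69, 8.81 and 4.99 CPM in the leaves (3.78 ± 0.24, adjusted p = 6.31e-06). SAG21, a late embryogenesis abundant protein gene of senescence, and BCB, a blue copper protein gene, rose by 4.53 ± 0.31 and 2.87 ± 0.20. ACD2, the red chlorophyll catabolite reductase, went the other way (-1.54 ± 0.09, adjusted p = 3.72e-06).

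Nuclear genes of photosynthesis were lower in the discs, and no member of 4 lists was called higher in the edgeR test of all 6 libraries with TMM scaling. Exceptions under alternatives were 1 Calvin cycle gene called higher with DESeq2, limma-voom, RLE or library-size scaling or without wild-type replicate 2, and 1 photosystem gene with DESeq2, limma-voom or library-size scaling. Lower were 12 of 18 light-harvesting genes (median -0.68), 25 of 30 genes of photosystem and electron transport subunits (-0.94), 17 of 19 Calvin cycle genes (-1.44) and 15 of 20 chlorophyll synthesis genes (-1.16). LHCB4.3, an antenna protein of photosystem II, was at 3.49, 2.73 and 2.96 CPM in the discs and 203, 72.9 and 160.2 CPM in the leaves (-5.58 ± 0.42, adjusted p = 2.21e-05). The Rubisco small subunit gene RBCS1B was at 78.8, 71.8 and 38.4 CPM against 1179, 689 and 1284 CPM (-4.07 ± 0.36, adjusted p = 3.44e-05). The RBCS and CAB genes have near-identical copies, so reads of single copies are uncertain. GAPB, SBPASE and HCEF1, enzymes of the Calvin cycle, fell by 2.32, 2.36 and 1.88. In these 5 genes wild-type replicate 2 was the lowest leaf library, mannitol replicate 3 was the lowest disc library except in LHCB4.3, and no disc library reached a leaf library.

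The light-dependent protochlorophyllide reductases were among the largest falls of chlorophyll synthesis: PORB was at 115, 109 and 83.4 CPM in the discs and 1621, 899 and 1893 CPM in the leaves (-3.85 ± 0.30, adjusted p = 1.59e-05). Its relative POR C was at 22.3, 23.5 and 17.5 CPM against 396, 256 and 414 CPM (-4.08 ± 0.23, adjusted p = 2.68e-06). The ferredoxin reductase genes FNR1 and FNR2 fell by 1.90 and 3.03, and NPQ4, the photosystem II protein PsbS of energy quenching, by 2.93. Photorespiration was mixed, with 9 genes lower and 2 higher of 14 (median -0.75). LrgB, the plastid glycolate and glycerate carrier PLGG1, was at 31.6, 37.4 and 19 CPM in the discs and 443, 329.9 and 441 CPM in the leaves (-3.79 ± 0.27, adjusted p = 1.04e-05), and the glycine decarboxylase gene GLDP1 fell by 3.62. The glycolate oxidase gene GOX1 (0.50 ± 0.16, adjusted p = 0.0209) and CAT2 (AT4G35090), a peroxisomal catalase (0.80 ± 0.17, adjusted p = 0.00304), rose. The GOX1 call was lost without mannitol replicate 1 or 2 or wild-type replicate 1 or 3 (adjusted p = 0.0519 to 0.0877).

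**Figure D2:**
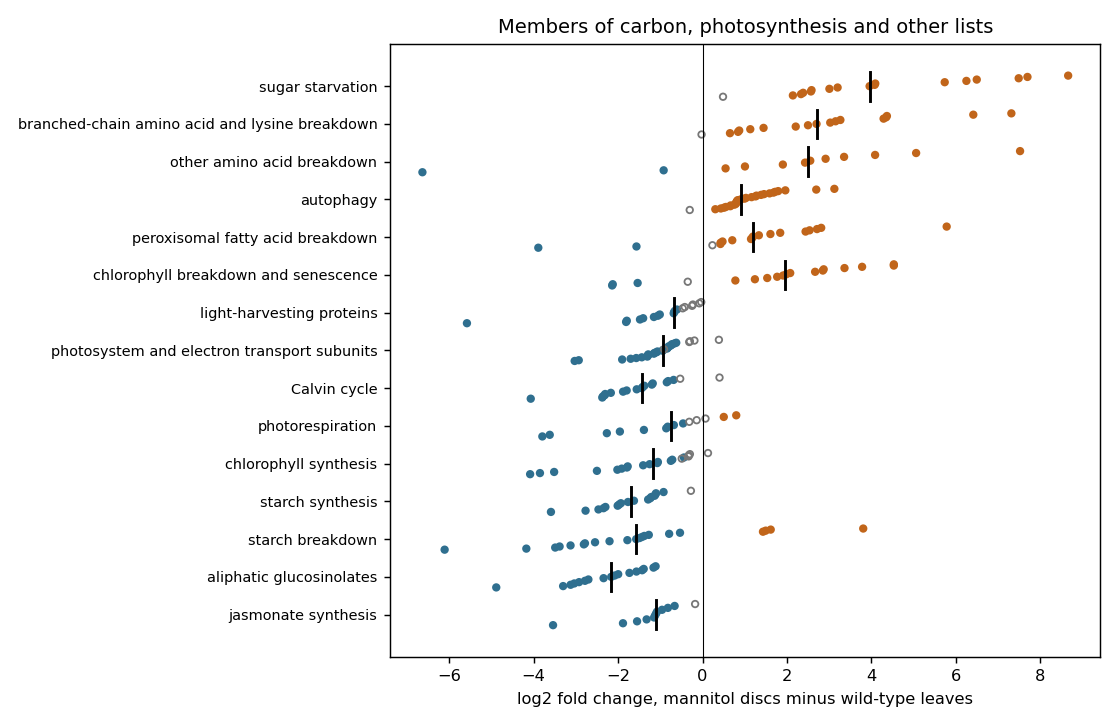
Log2 fold changes (discs minus leaves) of the tested members of 15 lists, filled where called (orange higher, blue lower) and open where not, with a black bar at each list's median. The medians of the breakdown lists lie between 0.90 and 3.96, and those of the photosynthesis, starch, aliphatic glucosinolate and jasmonate synthesis lists between -2.16 and -0.68.

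Both arms of starch turnover were lower in the discs: 17 of 18 synthesis genes (median -1.70, none higher) and 17 of 21 breakdown genes (median -1.57, 4 higher). PHS2 (AT3G46970, chr3:17301394-17306633, minus strand, 16 exons), the cytosolic glucan phosphorylase of maltose use, was at 10.4, 9.96 and 10.1 CPM in the discs and 660.4, 723 and 706 CPM in the leaves (-6.11 ± 0.14, adjusted p = 3.2e-07). DPE2, its partner enzyme in maltose use, was at 30, 25.5 and 24.8 CPM against 444, 559 and 441 CPM (-4.17 ± 0.16, adjusted p = 5.49e-07), and the alpha-amylase gene AMY3 fell by 2.79. APL1, APL2 and ADG1, subunits of ADP-glucose pyrophosphorylase that make the precursor of starch, fell by 2.46, 2.30 and 2.35. Against this direction stood BMY3, known as BAM9, a beta-amylase family gene, at 136, 133 and 136 CPM in the discs and 9.59, 9.14 and 10.1 CPM in the leaves (3.81 ± 0.10, adjusted p = 3.2e-07), and the beta-amylase gene BAM1 (AT3G23920; 1.61 ± 0.14).

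Genes of sucrose and hexose metabolism split evenly, with 7 higher and 7 lower of 16. The vacuolar invertase genes ATBETAFRUCT4 and AT1G62660, whose enzymes split stored sucrose, rose. ATBETAFRUCT4 was at 968, 869.9 and 738 CPM in the discs and 137, 114 and 167 CPM in the leaves (2.62 ± 0.19, adjusted p = 8.1e-06), and AT1G62660 rose by 3.08 ± 0.20. ATSPS4F, a sucrose phosphate synthase, fell by 2.51 (adjusted p = 2.17e-06). In trehalose metabolism 8 of 13 genes were lower and 3 higher (median -1.13). TPS1, the enzyme that makes the signal sugar trehalose 6-phosphate, was at 6.24, 4.62 and 4.37 CPM in the discs and 43.7, 49.5 and 44.8 CPM in the leaves (-3.19 ± 0.15, adjusted p = 1.21e-06). TRE1, the trehalase, and ATTPS6 rose by 2.85 ± 0.18 and 2.06 ± 0.10.

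Of 28 sugar transporter genes tested, 12 were higher and 6 lower (median 0.31). ERDL4, the carrier overexpressed in the other leaves of the series, was at 46.7, 44.6 and 36.5 CPM in the discs and 127, 115 and 155 CPM in the leaves (-1.65 ± 0.15, adjusted p = 2.94e-05). ERDL6, its close relative that exports glucose from the vacuole, went the other way, at 178, 161 and 171 CPM against 68.3, 52.5 and 63.6 CPM (1.46 ± 0.12, adjusted p = 2.07e-05). Neither gene's groups overlapped. SWEET17, a fructose carrier of the tonoplast, was at 16.9, 17.5 and 17.1 CPM in the discs and 59.7, 57.2 and 61.8 CPM in the leaves (-1.80 ± 0.09, adjusted p = 1.54e-06), and TMT2, the tonoplast sugar importer TST2, fell by 1.24 (adjusted p = 8.78e-05). TMT1 (TST1) was at 69, 63.9 and 70 CPM against 61.1, 45.9 and 71.3 CPM and SWEET16 at 2.64, 2 and 1.99 CPM against 2.69, 1.63 and 2.12 CPM, with overlapping groups in both and adjusted p-values of 0.337 and 0.926. The plasma membrane hexose importer genes STP14 and AT5G61520 (STP3) rose by 2.98 ± 0.14 and 2.03 ± 0.15. FBP, the cytosolic fructose bisphosphatase also named FINS1, fell by 1.97 (adjusted p = 1.25e-05) and the glucose sensor hexokinase HXK1 by 0.76 (adjusted p = 0.00017). NAC089, a transcription factor linked to fructose signalling, rose by 1.55 ± 0.20 (adjusted p = 0.000217).

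**Figure D3:**
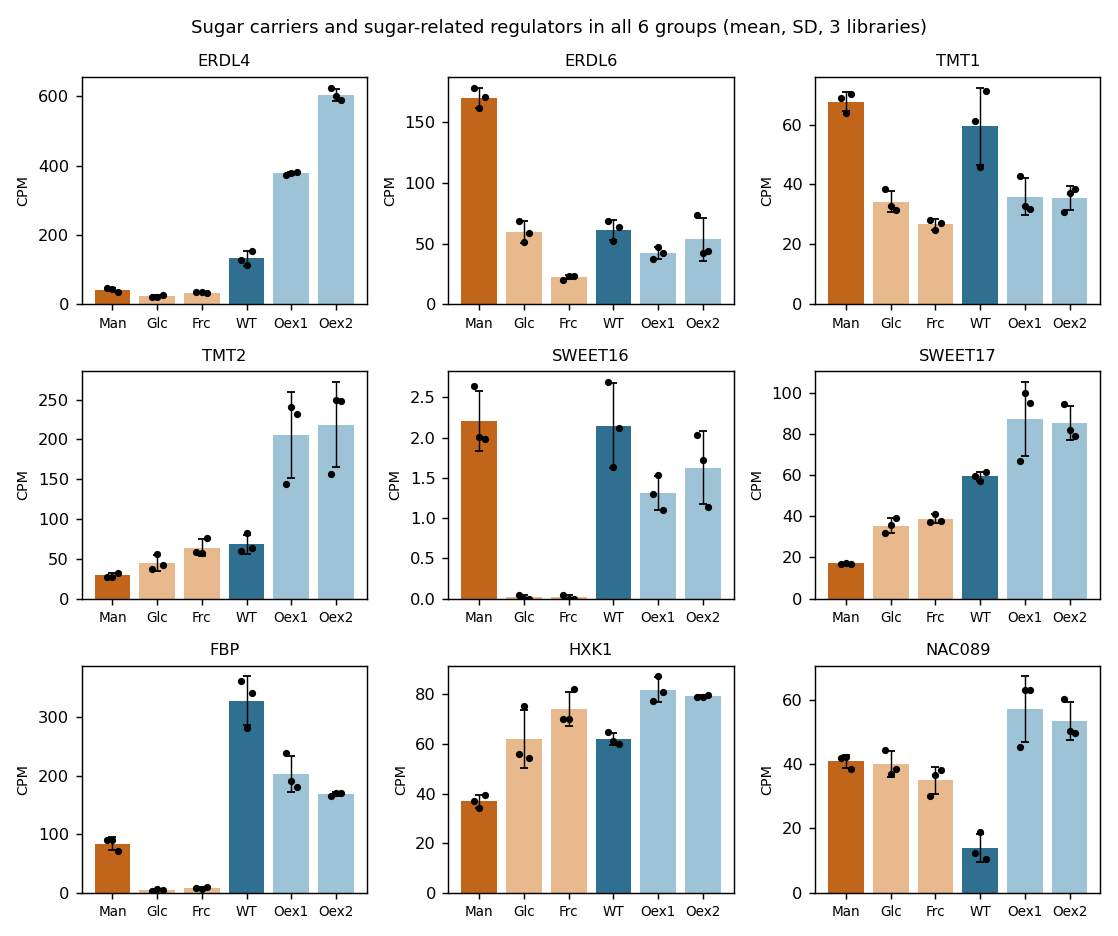
Levels in TMM-scaled CPM of ERDL4, 5 other vacuolar sugar carriers, FBP, HXK1 and NAC089 in discs in mannitol (Man), glucose (Glc) or fructose (Frc) and in leaves of wild type (WT), Oex1 and Oex2; bars are means, whiskers the SD and points the 3 libraries. ERDL6 is at 161 to 178 CPM in mannitol discs, above every other library, and SWEET16 is at 0.0168 and 0.0143 CPM in the hexose discs.

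Defence metabolism was lower in the discs. All 17 tested genes of aliphatic glucosinolate synthesis, which makes the mustard oil precursors of the cabbage family, were lower, each at least 2-fold (median -2.16). MYB29, a master regulator of the pathway, was at 3.2, 2.73 and 1.72 CPM in the discs and 70.5, 77.7 and 74.5 CPM in the leaves (-4.88 ± 0.20, adjusted p = 6.44e-07), and MYB28 fell by 2.78. FMO GS-OX3, which modifies the side chain, was at 16.1, 10.2 and 11.2 CPM against 124, 124 and 119.6 CPM (-3.30 ± 0.17). Camalexin and indolic glucosinolate genes were lower in 11 and higher in 2 of 16 (median -1.11). CYP81F3 fell by 5.38, and CYP71A12, a camalexin pathway enzyme, rose by 4.76 ± 0.34, and 4 genes were higher without wild-type replicate 2. Of 5 myrosinase and specifier genes, the enzymes that turn glucosinolates into mustard oils, 3 were lower and ESM1 was higher. TGG1 and TGG2 fell by 1.93 and 1.54. Flavonoid genes were lower in 8 of 11 with none higher (median -1.79). TT4, chalcone synthase, was at 1.41, 1.11 and 0.177 CPM in the discs and 67.3, 16.5 and 59.5 CPM in the leaves (-5.80 ± 0.75, adjusted p = 0.000416).

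Salicylic acid genes were lower in 13 and higher in 2 of 20 (median -0.88). WRKY54, a regulator of salicylic acid responses, was at 1.57, 1.89 and 0.883 CPM in the discs and 59, 61.8 and 44 CPM in the leaves (-5.27 ± 0.25, adjusted p = 1.54e-06). The antimicrobial protein gene PR5 was at 15, 9.23 and 10.8 CPM against 354, 159 and 155 CPM (-4.26 ± 0.39, adjusted p = 5.95e-05), with wild-type replicate 1 above the other leaf libraries. WRKY70 fell by 2.37. The isochorismate synthase gene EDS16, which makes salicylic acid, was slightly higher (0.33 ± 0.10, adjusted p = 0.0215), and its call was lost without mannitol replicate 1 or 2 or wild-type replicate 1 or 3 (adjusted p = 0.052 to 0.0823). The monooxygenase gene FMO1 rose more, at 3.6, 2.84 and 4.51 CPM in the discs and 1.26, 0.979 and 0 CPM in the leaves (2.29 ± 0.73, adjusted p = 0.0232). The count of higher genes in this list was 0 without mannitol replicate 1, 1 without any one of the other mannitol libraries or wild-type replicate 1 or 3, and 5 without wild-type replicate 2.

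Genes tied to wounding did not move as one group after the night in mannitol. Jasmonate synthesis was lower in 11 of 12 genes, with none higher (median -1.11). AOC2, allene oxide cyclase, was at 48, 43.3 and 48.9 CPM in the discs and 618, 595 and 412 CPM in the leaves (-3.54 ± 0.18, adjusted p = 1.76e-06). The synthesis enzymes LOX3, AOS and OPCL1 fell by 1.88, 1.32 and 1.15. Jasmonate response genes had 10 higher and 7 lower of 26, with a median of 0.01. These shares, 38.5% and 26.9%, were near the 32.6% and 33.9% of all genes tested. ST2A, a sulfotransferase that inactivates hydroxyjasmonate, was at 1827, 1494 and 1974 CPM in the discs and 14.1, 7.07 and 10.9 CPM in the leaves (7.36 ± 0.31, adjusted p = 7.46e-07). The thionin gene THI2.1 had 1 count in the leaves and 211 in the discs, a ratio of 207 with a 95% counting interval of 36.7 to 8199.5. The transcription factor gene MYC4 fell by 2.06 and the chlorophyllase gene CLH1 by 4.26.

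Early wound and touch genes had 2 members higher and 6 lower of 16, 12.5% and 37.5% (median -0.92). The share lower was near the 33.9% of all genes tested, and the share higher was below their 32.6%. However, 4 were higher without wild-type replicate 2 and 1 without mannitol replicate 3 or wild-type replicate 3. Without wild-type replicate 1, 10 were lower. TCH4, a touch-induced cell wall enzyme, was at 64.1, 61.5 and 45.2 CPM in the discs and 5.38, 25.8 and 13.3 CPM in the leaves (1.94 ± 0.48, adjusted p = 0.00947, and 0.0502 without wild-type replicate 3). The ethylene response factors ERF5, ERF6, the danger peptide precursor PROPEP1 and the kinase gene MPK3 fell by 2.24, 2.21, 2.15 and 1.19. Only 3 of 12 genes of wound callus and root regeneration had enough counts to be tested, and RAP2.4, known as WIND1, a regulator of callus formation, rose by 1.10 ± 0.11 (adjusted p = 4.26e-05). Of these 3 genes 2 were higher, or 1 without mannitol replicate 1. Phenylpropanoid and lignin genes were higher in 9 and lower in 2 of 17 (median 0.72), with 1 lower when any 1 library other than wild-type replicate 2 was left out. C4H and PAL1, enzymes at the entry of the pathway, were at 701, 634 and 783 CPM against 73, 66.2 and 74.2 CPM and 616, 546 and 715 CPM against 65.1, 60 and 83 CPM (3.30 ± 0.14 and 3.16 ± 0.18). Of 14 suberin genes, 5 were tested, 3 higher and 2 lower.

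**Figure D4:**
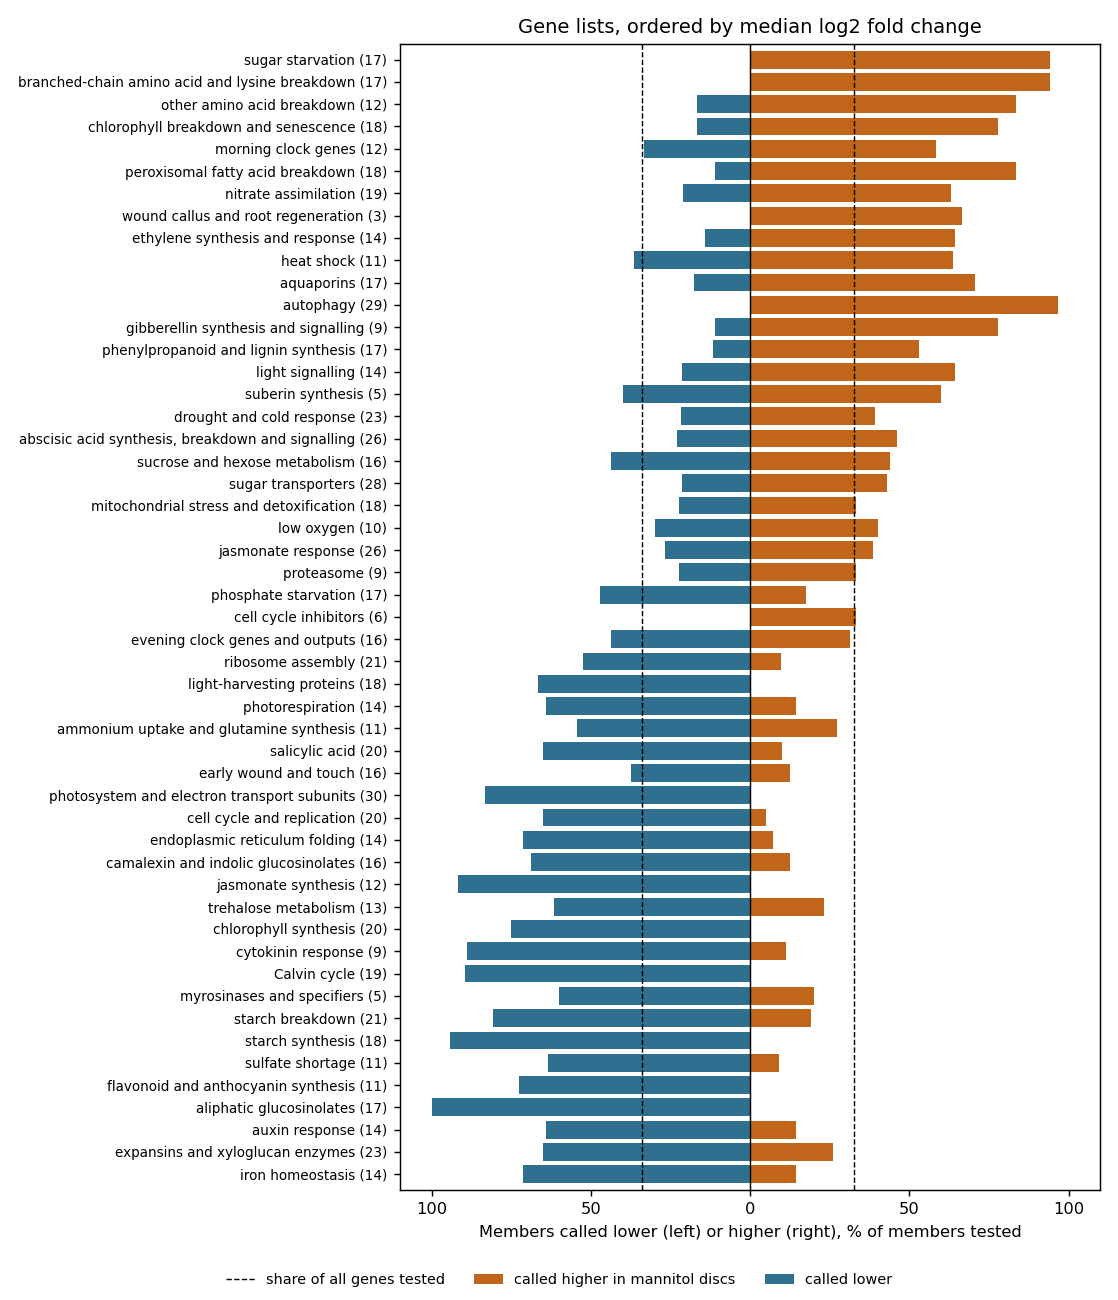
Share of the tested members of 51 gene lists that were called lower (blue, to the left) or higher (orange, to the right) in mannitol discs, ordered by median log2 fold change, with the number tested in parentheses and dashed lines at the shares of all genes tested, 33.9% and 32.6%. Sugar starvation and amino acid breakdown lists stand at the top, and iron homeostasis, expansins, auxin response and aliphatic glucosinolates at the foot.

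Growth lists differed in direction: more members were lower than higher among expansins and xyloglucan enzymes, cell cycle and ribosome assembly genes, and more were higher than lower among aquaporins. Expansins and xyloglucan enzymes were lower in 15 and higher in 6 of 23 (median -2.55), with EXPA10 falling by 3.87 and the xyloglucan hydrolase genes XTH24 and XTR6 rising by 3.74 ± 0.17 and 4.85 ± 0.49. Cell cycle and replication genes were lower in 13 and higher in 1 of 20 (median -0.97). The ribonucleotide reductase gene TSO2 was at 14.8, 12.6 and 11.8 CPM in the discs and 30.4, 32.2 and 33.1 CPM in the leaves (-1.29 ± 0.12), and CYCD3;3 fell by 1.48. CYCD2;1, another D-type cyclin, rose by 0.52 ± 0.10. Of 6 cell cycle inhibitors, 2 were higher (33.3%, near the 32.6% of all genes tested), ICK1 (0.50 ± 0.16) and LGO (0.57 ± 0.18). Their adjusted p-values were 0.0213 and 0.0219. Here 1 was higher without mannitol replicate 1 or 3 or wild-type replicate 3, none without wild-type replicate 1, and without wild-type replicate 2 another 1 was lower. Ribosome assembly genes were lower in 11 and higher in 2 of 21, by small amounts (median -0.39). NOP56, a nucleolar core protein, was at 35.2, 35.8 and 37.1 CPM against 67.3, 57.1 and 68.7 CPM (-0.84 ± 0.10, adjusted p = 0.000158). Proteasome genes had 3 higher and 2 lower of 9, none of them 2-fold, and 4 were lower without wild-type replicate 2. The shares were 33.3% and 22.2%, against 32.6% and 33.9% of all genes tested, so the share higher was no more than usual. Aquaporins, the water channels, were higher in 12 and lower in 3 of 17 (median 0.97). PIP3 was at 876, 795 and 582 CPM in the discs and 92.2, 61.2 and 102 CPM in the leaves (3.13 ± 0.24, adjusted p = 1.31e-05), and GAMMA-TIP fell by 1.68.

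Response genes of the growth hormones auxin and cytokinin were mostly lower. Auxin response genes were lower in 9 and higher in 2 of 14 (median -2.23), with the repressor gene IAA29 at 0.337, 0.223 and 0 CPM in the discs and 11.8, 23.1 and 16.6 CPM in the leaves (-6.59 ± 0.54, adjusted p = 2.36e-05). WES1 and DFL1, which conjugate auxin to amino acids, rose by 2.51 ± 0.39 and 1.23 ± 0.27. Cytokinin response genes were lower in 8 of 9: the response regulator gene ARR9 fell by 2.67, and CKX5, a cytokinin oxidase that destroys the hormone, was the 1 that rose (2.75 ± 0.22, adjusted p = 1.31e-05). Ethylene genes were higher in 9 and lower in 2 of 14 (median 1.06), with 1 lower when any 1 library other than mannitol replicate 2 was left out. ACS2, an ethylene synthesis enzyme, was at 9.16, 9.46 and 10.7 CPM in the discs and 0.158, 0.218 and 0.0504 CPM in the leaves (6.05 ± 0.32, adjusted p = 2e-06), while its relative ACS6 fell by 2.04. Gibberellin genes were higher in 7 of 9, the receptor genes GID1A and GID1B by 1.03 ± 0.14 and 2.28 ± 0.27 and the repressor GAI by 1.44 ± 0.16. The synthesis gene GA20OX1 fell (-5.34 ± 0.63, adjusted p = 0.00012), and 2 were lower without mannitol replicate 1 or 2.

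Nutrient lists moved apart from each other. Nitrate assimilation was higher in 12 and lower in 4 of 19 (median 1.15), led by the BTB and TAZ domain genes that nitrate and sugar shortage are known to regulate. BT2 (AT3G48360, chr3:17907767-17910738, minus strand, 5 exons) was at 491, 589 and 346 CPM in the discs and 1.37, 1.03 and 1.56 CPM in the leaves (8.47 ± 0.29, adjusted p = 3.81e-07). BT1 was at 652, 796 and 467 CPM against 15.9, 22.6 and 15.2 CPM (5.15 ± 0.27, adjusted p = 1.96e-06). Genes of ammonium uptake and glutamine synthesis were lower in 6 and higher in 3 of 11, with the transporter AMT1;2 down by 4.34 and the asparagine synthetase gene ASN2 up by 1.56 ± 0.17. Sulfate shortage genes were lower in 7 of 11 (median -1.71). APR1, the APS reductase of sulfate reduction, was at 23.8, 19.2 and 25.5 CPM against 236, 266 and 228 CPM (-3.42 ± 0.14, adjusted p = 7.23e-07). The sulfate importer SULTR1;2 rose (2.90 ± 0.34, adjusted p = 0.000174), the only 1 higher. When any 1 library other than mannitol replicate 2 or 3 was left out, 2 were higher. Phosphate starvation genes were lower in 8 and higher in 3 of 17 (median -0.12); the sensor gene SPX1 fell by 3.66 and the importer PHT1;4 rose by 2.24 ± 0.28, and 6 were higher without wild-type replicate 2. Iron homeostasis genes were lower in 10 and higher in 2 of 14 (median -2.68). bHLH38, a transcription factor of iron shortage, had 1 count in the discs and 514 in the leaves. Its leaf libraries were uneven, at 3.85, 20.6 and 3.18 CPM, with wild-type replicate 2 highest. The iron store ferritin FER1 was at 517, 493 and 437 CPM in the discs and 89.5, 80.4 and 169 CPM in the leaves (2.08 ± 0.28, adjusted p = 0.000334).

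Morning clock genes were more often higher than lower, and the evening list stood near the share of all genes tested. The hours at which discs and leaves were taken are not given, so a difference of hour cannot be told apart from the treatment. Morning genes were higher in 7 and lower in 4 of 12 (median 1.38), and evening genes and their outputs higher in 5 and lower in 7 of 16 (median -0.13). Of all genes tested, 32.6% were higher and 33.9% lower. LHY, a dawn transcription factor of the core clock, was at 171, 193 and 116 CPM in the discs and 10.3, 15.1 and 7.46 CPM in the leaves (3.86 ± 0.30, adjusted p = 1.79e-05). RVE2, LCL1 and AT3G54500, the coactivator LNK2, rose by 4.44 ± 0.22, 2.24 ± 0.15 and 2.38 ± 0.16. PRR7 and AT5G64170, the coactivator LNK1, fell by 0.43 and 0.45. Without mannitol replicate 1 their adjusted p-values were 0.06 and 0.0549, and 1 morning gene was lower. GRP7, an RNA-binding protein of the evening, was at 26.4, 21 and 43 CPM in the discs and 374, 497 and 485 CPM in the leaves (-3.91 ± 0.28, adjusted p = 1.16e-05). Its relative CCR1 (GRP8, AT4G39260) was at 64.6, 63.8 and 102 CPM against 393, 427 and 411 CPM (-2.42 ± 0.20). PCL1, the evening repressor LUX, was at 14.2, 14.4 and 15.1 CPM against 7.06, 5.71 and 7.51 CPM (1.09 ± 0.14, adjusted p = 0.000193). Members with the same textbook phase moved in both directions, and in each of these genes the groups did not overlap.

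The evening element, AAAATATCT on either strand, is the site through which LHY and CCA1 repress evening genes. It lay in the 250 bases before 7 of the 16 evening genes, of 2.52% of all tested genes, of 3.79% of genes at least 2-fold lower and of 2.12% of genes at least 2-fold higher. The 200 bases before the starts of GRP7 (chr2:9266558-9266757, minus strand), CCR1 (chr4:18275217-18275416, minus strand) and PCL1 (chr3:17182842-17183041, plus strand), from the RefSeq TAIR10.1 genome with the element in capitals (AGATATTTT in reverse), show it in genes that fell and in one that rose:

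GRP7: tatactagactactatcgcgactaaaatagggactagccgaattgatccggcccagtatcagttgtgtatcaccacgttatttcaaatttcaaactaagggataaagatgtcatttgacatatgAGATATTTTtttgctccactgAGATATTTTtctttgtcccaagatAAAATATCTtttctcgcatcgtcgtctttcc

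CCR1: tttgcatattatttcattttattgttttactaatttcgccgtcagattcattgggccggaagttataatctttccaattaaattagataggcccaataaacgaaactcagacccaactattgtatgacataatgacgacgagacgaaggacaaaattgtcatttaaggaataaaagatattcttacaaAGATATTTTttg

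PCL1: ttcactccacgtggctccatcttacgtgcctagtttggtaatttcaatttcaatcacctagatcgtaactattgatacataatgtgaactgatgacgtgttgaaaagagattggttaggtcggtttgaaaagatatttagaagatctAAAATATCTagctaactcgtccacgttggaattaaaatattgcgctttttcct

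GRP7 holds 3 copies in this stretch, and CCR1 and PCL1 hold 1 each. Light signalling genes were higher in 9 and lower in 3 of 14 (median 0.61). HFR1, a light and shade regulator, was at 96.9, 105 and 102 CPM in the discs and 1.21, 3.54 and 2.02 CPM in the leaves (5.49 ± 0.30, adjusted p = 3.37e-06). HB-2, which rises in shade, was up by 2.25 ± 0.21, and GLK2, a driver of chloroplast development, fell by 1.28.

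Stress lists gave no common direction. Of all genes tested, 32.6% were higher and 33.9% lower. Shares higher and lower were 40% and 30% for low oxygen genes, close to these. They were 39.1% and 21.7% for drought and cold and 33.3% and 22.2% for mitochondrial stress genes. In these lists the share higher was close to that of all genes. Abscisic acid genes were higher in 12 and lower in 6 of 26 (median 0.45). The receptor gene RCAR3 was at 340.2, 379.9 and 287 CPM in the discs and 64, 50.9 and 60.2 CPM in the leaves (2.52 ± 0.15, adjusted p = 3.74e-06). The phosphatase gene HAB1, which holds the pathway off, rose by 3.14 ± 0.25. Drought and cold genes were higher in 9 and lower in 5 of 23 (median 0.52; 8 lower without wild-type replicate 1), with the stress regulator RD26 up by 2.35 ± 0.18. COR15B, a chloroplast cold protein, was at 3.15, 2.39 and 1.94 CPM in the discs and 81.7, 98 and 81.4 CPM in the leaves (-5.14 ± 0.18, adjusted p = 3.84e-07). Genes of protein folding in the endoplasmic reticulum were lower in 10 and higher in 1 of 14 (median -1.02), the chaperone gene BIP2 by 1.98. Heat shock genes were higher in 7 and lower in 4 of 11, or lower in 2 without mannitol replicate 1 or 2 or wild-type replicate 1, with the heat shock factor gene HSFA7A up by 3.86 ± 0.39. Mitochondrial stress and detoxification genes had 6 higher and 4 lower of 18 (median 0.08; 7 lower without wild-type replicate 2). AOX1A, the alternative oxidase that marks mitochondrial stress, fell from 54, 58.3 and 51.5 CPM to 25.4, 25.4 and 33.6 CPM (-0.96 ± 0.13, adjusted p = 0.000255). Low oxygen genes had 4 higher and 3 lower of 10: ADH1, alcohol dehydrogenase, rose by 2.24 ± 0.18, and PDC2, which feeds it, fell by 2.00. Transcripts of the mitochondrial genome made up 0.0104% to 0.0148% of counts in the discs and 0.00465% to 0.00526% in the leaves, and those of the chloroplast genome 0.0282% to 0.0314% and 0.0226% to 0.0285%.

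A second comparison of discs with leaves in the series shares no library with the first: glucose and fructose discs against Oex1 and Oex2 leaves, which differ from the first by the supplied hexose and by the overexpression of ERDL4, so these cannot be told apart. The promoter that drives ERDL4 in the Oex lines is not given. There 81.2% of 19286 genes tested were called, 7915 (41%) higher in discs and 7745 (40.2%) lower. The median log2 fold change of all genes was -0.000559, or 0.16 with library size as the only scaling. Over the 18103 genes tested throughout, 2790 were at least 2-fold higher in mannitol discs and 3782 in hexose discs, and 1106 were in both sets, 39.6% of the first and 29.2% of the second. At least 2-fold lower were 3503 and 4130, with 1969 in both, 56.2% and 47.7%. Another 311 genes were higher in mannitol discs and lower in hexose discs, 11.1% of the first set, and 336 were lower and higher, 9.59%. The difference between the contrasts, tested in 1 fit over all 18 libraries, was called in 65.3% of 19632 genes. It was higher for the mannitol side in 6542 (33.3%) and lower in 6286 (32%). It was called higher for 1815 of the 2790 genes that were 2-fold higher in mannitol discs (65.1%) and lower for 1696 of the 3503 that were lower (48.4%). The mannitol and wild-type libraries entered both tests, so these shares are a description.

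Genes of the Calvin cycle, the photosystems and light harvesting were mostly lower in both comparisons, and most of them fell less in mannitol. All 19 Calvin cycle genes, all 30 photosystem and electron transport genes and all 18 light-harvesting genes were lower in hexose discs than in Oex leaves, with medians of -3.96, -2.83 and -2.98. The difference was called in 15, 27 and 14 of them with the smaller fall in mannitol, and in 1 Calvin cycle gene with the larger fall there. Chlorophyll synthesis was divided: with hexose 2 genes were higher and 16 lower of 19 (median -1.44), and the difference was called higher for mannitol in 5 and lower in 6. Ribosome assembly went apart: all 21 genes were higher in hexose discs (median 2.29), and the difference was called for all 21. NOP56 was at 454 ± 58.4 CPM in glucose discs and 305 ± 20.9 CPM in fructose discs (SD, n = 3), against 35.2 to 37.1 CPM in mannitol discs. Of 17 genes of branched-chain amino acid and lysine breakdown, 3 were higher and 7 lower with hexose, and the difference was called higher for mannitol in 16. Sugar starvation genes had 8 higher and 5 lower of 15 tested there, and the difference was called higher for mannitol in 13 and lower in 2. TPS9, TPS10 and TPS11 were among those higher with hexose, by 2.57 ± 0.13, 1.71 ± 0.09 and 1.06 ± 0.12. Their rises were larger in mannitol, with differences of 1.51 ± 0.21, 2.35 ± 0.15 and 2.13 ± 0.20. All 23 drought and cold genes were lower in hexose discs, with the difference called for 22.

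The starvation gene ASN1 had the largest difference after THI2.1 among the named genes: it was at 0.0909 ± 0.0863 CPM in glucose discs, 0.532 ± 0.492 CPM in fructose discs, 9.31 ± 1.7 CPM in Oex1 leaves and 16.7 ± 8.69 CPM in Oex2 leaves (SD, n = 3). It rose in mannitol discs and fell in hexose discs (difference 12.01 ± 0.62, adjusted p = 5.31e-10). BT1 (5.15 in the first and -2.35 in the second comparison; difference 7.48 ± 0.58, adjusted p = 2.6e-08) and ATBETAFRUCT4 (2.62 and -3.76; 6.37 ± 0.61, 2.81e-07) had the same pair of directions. EXPA10 went the other way, falling in mannitol discs and standing at 251 ± 39.5 CPM in glucose discs (difference -9.49 ± 0.43, adjusted p = 1.39e-10), as did G6PD3, a plastid glucose 6-phosphate dehydrogenase (-1.41 and 3.91; -5.33 ± 0.23, 7.01e-11). The detoxification gene UGT74E2 rose in both, with 3.65, 5.45 and 4.28 CPM in mannitol discs and a mean of 1021 CPM in glucose discs (difference -6.72 ± 2.49, adjusted p = 0.0269, and 0.94 without wild-type replicate 2). For some genes that rose in both no difference was called: BT2 (difference 0.84 ± 0.80, adjusted p = 0.373), GDH2 (0.58 ± 0.28, 0.0788) and DIN10 (-0.77 ± 0.53, 0.21) were such genes. This does not show that the rises were equal. The difference of GDH2 was called without fructose replicate 2 (adjusted p = 0.00733) and that of DIN10 without Oex1 replicate 1 (adjusted p = 0.025). PHS2 fell by 6.11 in the first and by 5.71 in the second comparison, with a difference of -0.40 ± 0.40 (adjusted p = 0.397).

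**Figure D5:**
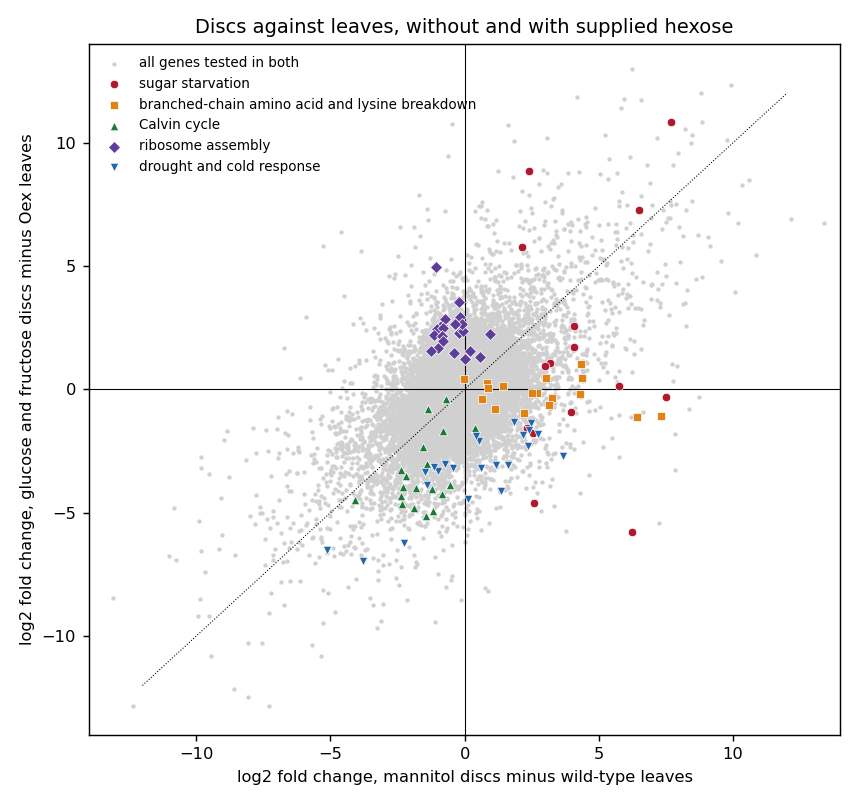
Log2 fold changes of genes tested in both comparisons, mannitol discs minus wild-type leaves on the x axis and hexose discs minus Oex leaves on the y axis, with 5 lists coloured and a dotted line where both are equal. Ribosome assembly genes lie above 0 on the y axis and near 0 on the x axis, branched-chain amino acid breakdown genes to the right and near 0 on the y axis, and Calvin cycle genes below 0 on the y axis.

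The 3 libraries of a group are labelled as biological replicates, and whether discs of a library came from 1 or several plants is not stated. The setting used to count strands is not given, so reads of overlapping and antisense genes cannot be told apart.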

How the data were processed

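The authors deposited 1 table of raw counts per gene for 18 libraries of total RNA, made by directional library construction per the labels' protocols. The submitters' processing notes name fastp, HISAT2 2.0.5, StringTie 1.3.3 and the TAIR10 build. Which program counted reads, and with what strand setting, is not given here. Of 32833 loci, 32548 matched the TAIR10.1 annotation by locus, and the others, organelle loci for the most part, held 0.0359% of counts in the 6 libraries.

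From the deposited counts, genes were kept by filterByExpr (minimum count 10, minimum total 15), given TMM factors and fitted with edgeR 4.0.16 (R 4.3.3) under its quasi-likelihood test with robust settings, with Benjamini-Hochberg adjustment over all genes tested and a threshold of 0.05. The comparison of mannitol discs with wild-type leaves used 6 libraries, that of hexose discs with Oex leaves 12, and the difference between them 18. Groups came from the titles and treatment labels. p-values rest on 3 libraries a group, which limits their precision to the spread between these libraries. Replicate numbers did not pair libraries: deviations of same-numbered mannitol and wild-type libraries correlated at -0.252 to -0.00382.

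The comparison, gene lists and tests were chosen with earlier results of these data known. Named genes are the 10 highest and 10 lowest fold changes among called genes that have a symbol, a mean of 5 CPM or more and no overlap, the 6 largest gains and losses in CPM, from every list up to 4 members of smallest p among those called and up to 2 against the list's direction, genes of vacuolar sugar carriage, and the 6 largest differences between the contrasts in each direction; not every one is printed. Promoter sequences are the bases before the annotated RefSeq start. Alternatives were RLE and library-size scaling, other filters, DESeq2 1.42.0, limma-voom (limma 3.58.1), a replicate block, other thresholds, leaving out the 100 most abundant genes or each library, summing the nearest libraries, and 1 fit over all 18 libraries. On simulated counts for mannitol discs against wild-type leaves (18052 genes in that step), the test recovered 96% of log2 changes of 2 in either direction, 78% of falls and 82% of rises of 1, and called 0.0896% of unchanged genes. The simulation changed 50 genes per step, all with ample counts in wild-type leaves, and left 17852 unchanged. In the data 66.4% of genes were called and many were near 0, so these rates need not hold there.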

Additional observations from a re-analysis of the deposited data

Results flagged for a closer look

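Genes below were picked because the fold change of mannitol discs against wild-type leaves differed from that of hexose discs against Oex leaves in the test of the difference itself (edgeR, all 18 libraries), among those with the largest such differences. The differences are log2 values, mannitol side minus hexose side. The thionin gene THI2.1 (12.66 ± 1.46, adjusted p = 3.27e-06) and the asparagine synthetase gene ASN1 (12.01 ± 0.62, adjusted p = 5.31e-10) stood first, and both were higher in mannitol discs than in wild-type leaves and lower in hexose discs than in Oex leaves. THI2.1 had 1 count in wild-type leaves, so the size of its difference depends on the prior count of the fit. The defensin-like gene PDF1.4 differed by 9.03 ± 0.98, adjusted p = 1.12e-06, with a fold change in hexose discs of -0.33 that was not called (adjusted p = 0.489). BT1 (7.48 ± 0.58, adjusted p = 2.6e-08) and the vacuolar invertase gene ATBETAFRUCT4 (6.37 ± 0.61, adjusted p = 2.81e-07) completed the rises. On the other side were the expansin gene EXPA10 (-9.49 ± 0.43, adjusted p = 1.39e-10), which fell in mannitol discs and rose in hexose discs, and G6PD3 (-5.33 ± 0.23, adjusted p = 7.01e-11), which did the same. XTH31 (-6.93 ± 0.85, adjusted p = 4.05e-06) and EXPA5 (-6.10 ± 0.81, adjusted p = 8.29e-06) fell in both comparisons and fell further in mannitol discs. The glucanase gene BG3 (-4.82 ± 1.78, adjusted p = 0.0275) also fell further in mannitol discs, but its fall in hexose discs leaned on 1 Oex library. Oex1 replicate 1 was at 57.5 CPM and the other Oex libraries were at 1.56 to 4.69 CPM. Fructose discs were at 3.11 to 6.09 CPM and glucose discs at 0.152 to 0.687 CPM. The call of the BG3 difference was lost with no filter on low counts (adjusted p = 0.0514). It was also lost without mannitol replicate 3 (adjusted p = 0.062) or glucose replicate 2 (adjusted p = 0.137). The glycosyltransferase gene UGT74E2 (-6.72 ± 2.49, adjusted p = 0.0269) rose in both and less in mannitol discs, with a ratio of 84.9 over wild-type leaves and a 95% counting interval of 28.7 to 414. Its wild-type counts are so few that the fitted size depends on the prior count, and without wild-type replicate 2 its difference was -3.35 with an adjusted p of 0.94. GLYI4 was among the largest differences by size and was not called (adjusted p = 1). Supplied sugar, genotype, cutting and batch cannot be told apart in these values.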

How the results depend on the processing

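Counts of called genes stayed within 1.5 times of those reported under every alternative except the demand for at least a 2-fold change, which left 2894 genes higher and 3564 lower in mannitol discs against wild-type leaves, 4377 higher and 4485 lower in hexose discs against Oex leaves, and 4052 higher for the difference. With 1 library left out, genes higher in mannitol discs numbered 5440 to 6451 and genes lower 5605 to 6420. The corresponding counts were 7779 to 8068 and 7633 to 7806 for hexose discs against Oex leaves, and 6258 to 6685 and 5930 to 6399 for the difference; groups with 1 library fewer share the spread of the fit. Lists with more members higher numbered 24 and 21 to 25 under the alternatives, and lists with more members lower 29 and 29 to 30. With the replicate number as a block, 5475 genes were higher and 5629 lower; the numbers do not pair the libraries, no mannitol library correlated best with the wild-type library of its own number, and of the genes named the block ended the calls of GOX1 and ICK1 (adjusted p = 0.0713 and 0.0529). Of 182 genes followed, 166 kept their direction and side of the threshold under all alternatives in which they were tested, thresholds included. Of the 182, 165 were tested without the 100 most abundant genes and 181 with the filter of at least 1 CPM. The 1 that changed sign was SWEET16, which is not called, whose log2 fold change with 1 library left out lay between -0.12 (without wild-type replicate 2) and 0.22 (without wild-type replicate 1), and at -0.11 without mannitol replicate 1. Library size as the only scaling ended the calls of PRR7 and AT5G64170 (adjusted p = 0.0606 and 0.0717), limma-voom that of PDF1.2b (0.0603), 1 fit over 18 libraries those of LHCB3, GOX1 and EDS16 (0.126, 0.108 and 0.124) and the summing of the nearest libraries those of GOX1, EDS16 and LGO (0.0802, 0.0569 and 0.0517); the cause was not tested. Leaving out the 100 most abundant genes removed members of the light-harvesting, photosystem and Calvin cycle lists, so that 2, 8 and 6 genes were lower. Overlapping and antisense genes and near-identical copies limit values of single genes, and low counts limit genes near 0.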

Other observations

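Promoter motifs were counted in the 250 bases before the start of 18249 tested genes, on both strands, as a description with no test; the gene lists named here were chosen after their values were seen. The site II element (TGGGCC), known from genes of cell growth and protein synthesis, was in 17.1% of all promoters, in 10.6% of those of genes called and at least 2-fold higher in mannitol discs and in 13.6% of those called and at least 2-fold lower. Among the ribosome assembly genes, 13 of 21 held it, and 5 of 21 held the telo-box (AAACCCTA), which was in 3.57% of all promoters, 2.09% of the higher and 2.95% of the lower group. The G-box (CACGTG), bound by bZIP and bHLH factors, was in 7.5% of all, 9.26% of the higher and 7.47% of the lower group, and in 6 of 12 morning clock genes and 6 of 14 iron homeostasis genes. The W-box (TTGACC or TTGACT), bound by WRKY factors, was in 28.1%, 30.7% and 26.1%. The GCC-box (GCCGCC) was in 2.07%, 2.16% and 1.63%, and the core of the heat shock element (GAANNTTC) in 9.41%, 8.64% and 9.94%. A match shows letters and not a bound site.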
